A study of Mus musculus with 12 samples.

Results

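The genes described here are 9 genes used as markers of the Paneth cell that do not belong to the alpha-defensin family, namely Lyz1, Mptx1, Mptx2, Ang4, Itln1, Mmp7, Pnliprp2, Habp2 and Sntb1. They were chosen by name, as the rows that carry these symbols in a table of normalised read counts, and all 9 were found among its 30265 genes. RNA sequencing had been run on intestinal epithelial cells of C57Bl/6 mice that carried a fluorescent reporter of the transcription factor Sox9 (Sox9-GFP) and had been separated by flow cytometry. The populations were Sox9 High, Sox9 Sublow, Sox9 Negative and Sox9 Low, called High, Sublow, Negative and Low below, with 3 libraries each (replicates A, B and C). All 4 populations came from reporter mice, none is labelled with a treatment, and every library came from 12000 cells. Sex, age and the number of mice are not in the labels, so p-values measure only the spread between these samples, which may be technical. The level of each gene was compared between the populations.

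Paneth cells sit at the base of the small intestinal crypts, between the stem cells. They store antimicrobial proteins in large granules, release them into the crypt lumen, and supply growth factors to the stem cells beside them. Among the proteins they release are lysozyme, lectins, ribonucleases of the angiogenin family and alpha-defensins, which in the mouse are cut to their active form by the metalloprotease Mmp7. Sox9 itself is needed for Paneth cells to form in the mouse.

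The libraries held 11.6 M to 17.0 M reads (M, 1e6). Values are normalised read counts, and the floor of 3 reads corresponds to 2.38 to 4.61 such units, depending on the library. The floor covers counting error only. Differences are log2(value + 1) of the population named first minus that of the second, with the standard error (SE) and the Benjamini-Hochberg adjusted p-value of a limma fit of all 12 libraries over 16577 genes, called below 0.05. The Sox9 transcript measured 20262 ± 1220.2 in High, 2084 ± 897 in Sublow, 604 ± 191 in Negative and 6601 ± 921 in Low (SD, n = 3 each), so that High was highest and Negative lowest. Summed over 6 markers each, enteroendocrine genes averaged 441769 in High, 4644 in Sublow, 915 in Negative and 54841 in Low. Enterocyte genes averaged 30344 in High, 178812 in Sublow, 472452 in Negative and 18120.1 in Low. Library High B lay below both High A and High C in 6 of the 8 genes that had reads in High, in 17 of 21 alpha-defensin rows with reads there and in 6 of 6 stem cell markers, but in 2 of 7 other Paneth cell markers and 3 of 7 genes for Paneth cell fate, against 33.7% of all tested genes. Differences of the genes described here that High B moved by more than 1.5 times are given with and without it. Shares of all genes called come from the fit of all 12 libraries and are not given without High B.

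The order of the populations was not the same for all 9 genes. Lyz1, Mptx2, Ang4 and Itln1 were highest in Negative, followed by Low, Sublow and High. Pnliprp2 and Sntb1 were also highest in Negative but lowest in Sublow. Mmp7 was highest in Low and lowest in High, Habp2 was highest in High and lowest in Sublow, and Mptx1 was highest in Sublow and had no read in High. Some neighbours in these orders did not pass the test, as given below for each gene.

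**Figure D1:**
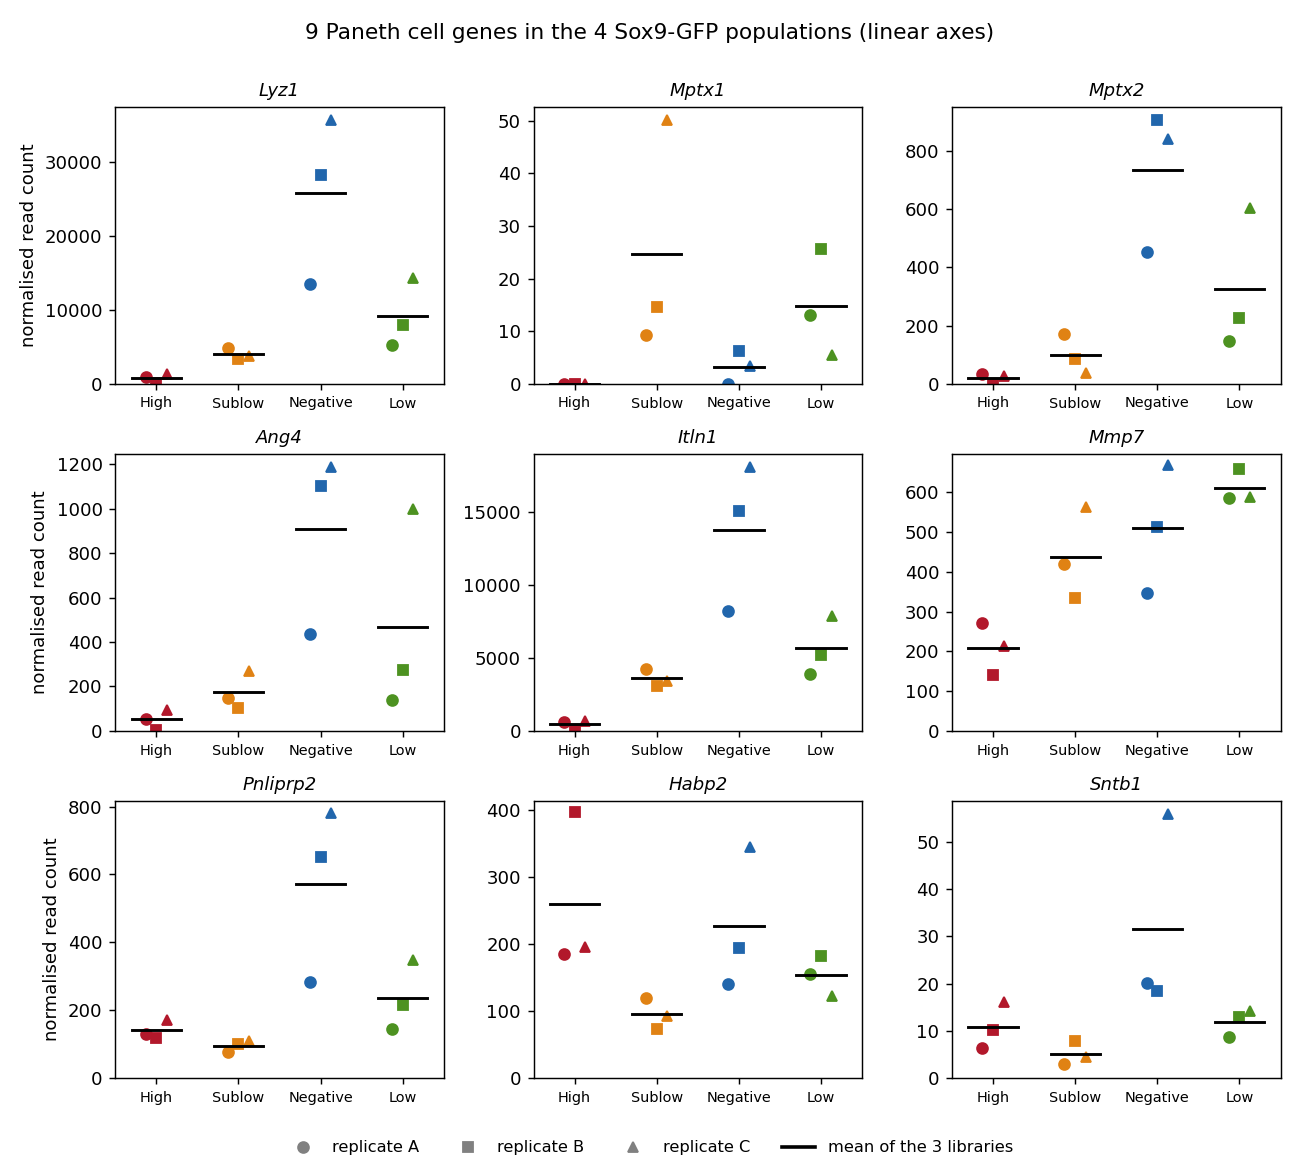
Normalised read count (vertical axes, linear, each from 0) of the 9 genes in each library, by population (horizontal axes). Each marker is a library and each bar the mean of 3 libraries. Lyz1, Mptx2, Ang4 and Itln1 had their 3 lowest libraries in High, whereas Habp2 had its highest library, 396, in High.

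Lyz1 encodes the lysozyme of Paneth granules, which cleaves the peptidoglycan of bacterial walls. It measured 936, 103 and 1314 in High replicates A, B and C, 4873, 3328 and 3792 in Sublow, 13454, 28211 and 35685 in Negative and 5296, 7919.8 and 14304 in Low. The 3 High libraries lay below all others and the 3 Sublow libraries below all of Negative and Low, whereas Negative and Low overlapped by 1 library each. Lyz1 was lower in High than in Low (log2 difference -4.06 ± 0.75 (SE), limma adjusted p = 0.000989), than in Negative (log2 difference -5.56 ± 0.75 (SE), limma adjusted p = 4.36e-05) and than in Sublow (log2 difference -2.97 ± 0.75 (SE), limma adjusted p = 0.00559). Sublow was below Negative (log2 difference -2.59 ± 0.75 (SE), limma adjusted p = 0.0262), a call lost without Sublow A (adjusted p = 0.054), Sublow C (0.0725), Negative B (0.0856) or Negative C (0.0778), with quantile scaling (0.0834) and in a fit of the 6 libraries compared (0.0507). Neither Sublow (log2 -1.10, adjusted p = 0.329) nor Negative (log2 1.50, adjusted p = 0.109) passed the test against Low. Negative was called above Low without High B (adjusted p = 0.00708) and in a fit of the 6 libraries of that comparison (0.0183). Without High B, the difference of High was -2.93 from Low, -4.42 from Negative and -1.83 from Sublow, all still called (adjusted p at most 0.00563). In bulk samples like these, fewer cells of a type and less RNA per cell cannot be told apart.

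Itln1 encodes intelectin, a lectin that binds sugars of microbial surfaces and is made in the mouse by Paneth and goblet cells. Its values were 590.0, 67.3 and 711 in High, 4282, 3072 and 3449 in Sublow, 8211, 15109 and 18094 in Negative and 3940.0, 5198 and 7880.1 in Low. All Negative libraries lay above all others and all High libraries below, while Sublow and Low overlapped. High was below Low (log2 difference -4.15 ± 0.69 (SE), limma adjusted p = 0.000457), Negative (log2 difference -5.42 ± 0.69 (SE), limma adjusted p = 2.47e-05) and Sublow (log2 difference -3.54 ± 0.69 (SE), limma adjusted p = 0.000936). Without High B these differences were -3.07 from Low, -4.34 from Negative and -2.46 from Sublow, all still called (adjusted p at most 0.000158). Negative exceeded Low by 1.27 ± 0.69, which did not pass (adjusted p = 0.135) although the libraries did not overlap, and passed without High B (adjusted p = 0.00432) and in a fit of the 6 libraries alone (0.0123). Sublow differed from Negative by -1.88 ± 0.69 (adjusted p = 0.0598, 0.00485 without High B, 0.0478 without High C, 0.041 with edgeR and 0.0191 with DESeq2), and from Low by -0.61 ± 0.69 (0.566).

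Ang4 encodes an angiogenin-family ribonuclease of mouse Paneth cells with microbicidal activity. It measured 55.9, 6.45 and 93.8 in High, 147, 104 and 268 in Sublow, 437, 1103 and 1186 in Negative and 138, 274 and 996 in Low. Negative and Low overlapped, with Low C between Negative A and Negative B, and Sublow overlapped with Low. High was below Low (log2 difference -3.30 ± 0.89 (SE), limma adjusted p = 0.00959; -2.20 without High B, adjusted p = 0.0342, and -2.51 without Low C, adjusted p = 0.0476) and below Negative (log2 difference -4.60 ± 0.89 (SE), limma adjusted p = 0.000721; -3.50 without High B). Against Sublow the difference of High was -2.23 ± 0.89 and did not pass (adjusted p = 0.0509). Without High B it was -1.13 (adjusted p = 0.225). It passed without High C (0.0207), Low A (0.0458) or Low C (0.0369), with quantile scaling (0.0291) and with library weights (0.0127). Sublow differed from Negative by -2.37 ± 0.89 (adjusted p = 0.0642), with no overlap, and passed without High B (0.026), with edgeR (0.0476), with DESeq2 (0.0316), with library weights (0.0364) and with a pseudocount of 5 (0.0462). Against Low, neither Sublow (log2 -1.06, adjusted p = 0.426) nor Negative (log2 1.30, adjusted p = 0.23) passed.

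Mptx2 and Mptx1 encode mucosal pentraxins, relatives of the acute-phase protein CRP, of which Mptx2 is used as a Paneth cell marker in the mouse. Mptx2 measured 33.4, 0.921 and 28.7 in High, 171, 85.0 and 36.9 in Sublow, 454, 906 and 839.8 in Negative and 146, 225 and 605 in Low. The value of 0.921 in High B was a single read. Mptx2 was lower in High than in Low (log2 difference -4.44 ± 0.96 (SE), limma adjusted p = 0.00259) and Negative (log2 difference -5.81 ± 0.96 (SE), limma adjusted p = 0.000213), with no overlap. Without High B these differences were -3.09 from Low (adjusted p = 0.00363) and -4.46 from Negative (0.000145). It was also lower in High than in Sublow (log2 difference -2.72 ± 0.96 (SE), limma adjusted p = 0.0307), but without High B this difference was -1.37 (adjusted p = 0.106), and the call was also lost without Sublow A (0.114), without Sublow B (0.0601) and in a fit of the 6 libraries alone (0.0742). Sublow was below Negative (log2 difference -3.09 ± 0.96 (SE), limma adjusted p = 0.0325), which was lost without Sublow C (0.122), Negative B (0.103) or Negative C (0.0795) and under 4 other settings (adjusted p from 0.0506 to 0.0999). Sublow (log2 -1.72, adjusted p = 0.221) and Negative (log2 1.37, adjusted p = 0.242; 0.0432 in a fit of the 6 libraries alone) did not pass against Low.

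Mptx1 did not share that order. It had 135 reads in all 12 libraries together, 0 of them in High, 79 in Sublow, 7 in Negative and 49 in Low. Normalised, it was at 0 in all 3 High libraries, 9.19, 14.5 and 50.1 in Sublow, 0, 6.15 and 3.42 in Negative and 13.1, 25.7 and 5.55 in Low. Mptx1 was lower in High than in Low (limma adjusted p = 0.003, 95% interval of the log2 difference -5.55 to -1.96). It was also lower in High than in Sublow (limma adjusted p = 0.000841, interval -6.13 to -2.53). The test of High against Negative did not pass (adjusted p = 0.109, interval -3.46 to 0.14), except without Negative A, the Negative library at 0 (0.0184), and with DESeq2 (0.0146). Taking 3 reads over the 3 High libraries as the floor, the mean in Low was 16.6 times that floor. The mean in Sublow was 27.7 times and that in Negative 3.59 times the floor. These ratios take the means as exact, so they are not lower bounds. Sublow was above Negative (log2 difference 2.67 ± 0.83 (SE), limma adjusted p = 0.0331). Sublow C held 57 of the 79 Sublow reads, and without it the difference was 1.99 (adjusted p = 0.146). That call was also lost without Negative A (0.103) or Negative C (0.0514), with quantile scaling (0.0774) and in a fit of the 6 libraries alone (0.107). Negative was below Low at an adjusted p of 0.0463 (log2 difference -2.09 ± 0.83), which was lost in 15 of 23 alternatives (adjusted p up to 0.215). In 8 of these 1 library was left out (High A, High B, High C, Sublow B, Negative A, Negative C, Low A or Low B; adjusted p from 0.0551 to 0.191). Sublow against Low was not called (log2 0.57, adjusted p = 0.661).

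Lyz1 and Mptx2 each have a close relative in the genome with a lower mean in every population, although Mptx1 had 57 reads in Sublow C, against 42 of Mptx2. The upstream sequences of both pairs are shown because the genes of a pair differ in level although much of that sequence is the same. Each line below gives the 250 bases before the annotated start of the gene, from RefSeq (GRCm38.p6), read 5′ to 3′ on the strand of the gene. Capitals mark bases that differ from, or have no partner in, the relative's aligned 300-base window, which reaches 50 bases past the start. The windows lie at chr10:117292869-117293118 (minus strand) for Lyz1, chr10:117282273-117282522 (minus) for Lyz2, chr1:174330268-174330517 (plus) for Mptx1 and chr1:173277757-173278006 (minus) for Mptx2.
Lyz1: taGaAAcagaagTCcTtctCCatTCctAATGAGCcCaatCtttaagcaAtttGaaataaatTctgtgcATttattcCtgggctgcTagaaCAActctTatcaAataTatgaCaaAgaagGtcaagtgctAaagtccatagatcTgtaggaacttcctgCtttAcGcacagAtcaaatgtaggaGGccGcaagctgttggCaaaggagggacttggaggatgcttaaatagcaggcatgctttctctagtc
Lyz2: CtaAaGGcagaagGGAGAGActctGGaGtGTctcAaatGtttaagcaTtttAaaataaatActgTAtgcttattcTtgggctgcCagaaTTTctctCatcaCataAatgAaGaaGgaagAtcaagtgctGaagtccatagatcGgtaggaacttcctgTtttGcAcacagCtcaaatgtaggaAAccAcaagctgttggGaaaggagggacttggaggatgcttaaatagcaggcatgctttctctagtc
Mptx1: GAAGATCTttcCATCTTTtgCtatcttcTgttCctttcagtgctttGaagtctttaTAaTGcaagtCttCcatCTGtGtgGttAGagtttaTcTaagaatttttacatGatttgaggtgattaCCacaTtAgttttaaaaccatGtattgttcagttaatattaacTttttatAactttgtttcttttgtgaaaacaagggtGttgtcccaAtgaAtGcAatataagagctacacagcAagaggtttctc
Mptx2: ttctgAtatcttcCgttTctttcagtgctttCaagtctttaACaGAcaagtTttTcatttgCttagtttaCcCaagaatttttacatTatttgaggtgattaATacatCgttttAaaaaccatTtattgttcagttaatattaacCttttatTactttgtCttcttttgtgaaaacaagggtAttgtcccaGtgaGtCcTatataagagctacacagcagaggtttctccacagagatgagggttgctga

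In the Lyz1 and Lyz2 windows 254 of 290 aligned bases were identical (87.6%), and in those of Mptx1 and Mptx2 252 of 277 (91.0%). The bases of Lyz1 nearest the start are all in lower case, that is, the same in Lyz2. Lyz2, the lysozyme gene used mainly by macrophages, measured 8.12, 11.1 and 2.53 in High, 2.04, 2.24 and 4.39 in Sublow, 14.8, 32.3 and 32.0 in Negative and 7.63, 5.14 and 17.4 in Low. Its read count was at most 0.867 per 100 Lyz1 reads except in High B, where it was 10.7. Like Lyz1 it was lower in Sublow than in Negative (log2 -2.78, adjusted p = 0.00791) and lower in High than in Negative (log2 -1.83, adjusted p = 0.0195), but it was not called between High and Low (log2 -0.44, adjusted p = 0.579). Reads of such near-identical genes may be split or dropped in counting, and how they were counted is not given here, so the levels of Lyz2 and Mptx1 in particular are uncertain. The other myeloid markers differed in level. S100a8 averaged 1.54 in High and 0 elsewhere, and S100a9 at most 0.373. Cx3cr1 averaged 153 in High, 121 in Sublow, 177 in Negative and 102 in Low. Adgre1 was higher in High than in Low (log2 4.61, limma adjusted p = 0.00147). Cd68 (log2 -1.01, adjusted p = 0.0332) and Itgam (log2 -2.26, 0.0338) were lower there, but not called without High B (0.0789 and 0.052). The 8-gene macrophage list summed to between 179 and 287 in every library. RefSeq upstream entries were matched for 8 of the 9 genes, Sntb1 being the one without. On either strand of the 250 bases before the start, CTTTGA, the core of the site of the Wnt effector Tcf7l2, was found for Mmp7, Mptx1 and Pnliprp2, against 13.8% of all 32851 RefSeq entries. ACAATG, a core of Sox factor sites, was found for Mmp7, against 10.7%, and TATAAA for Mmp7 and Mptx1, against 12.4%. None of the 3 motifs contains another, and a match is a description of the letters only.

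**Figure D2:**
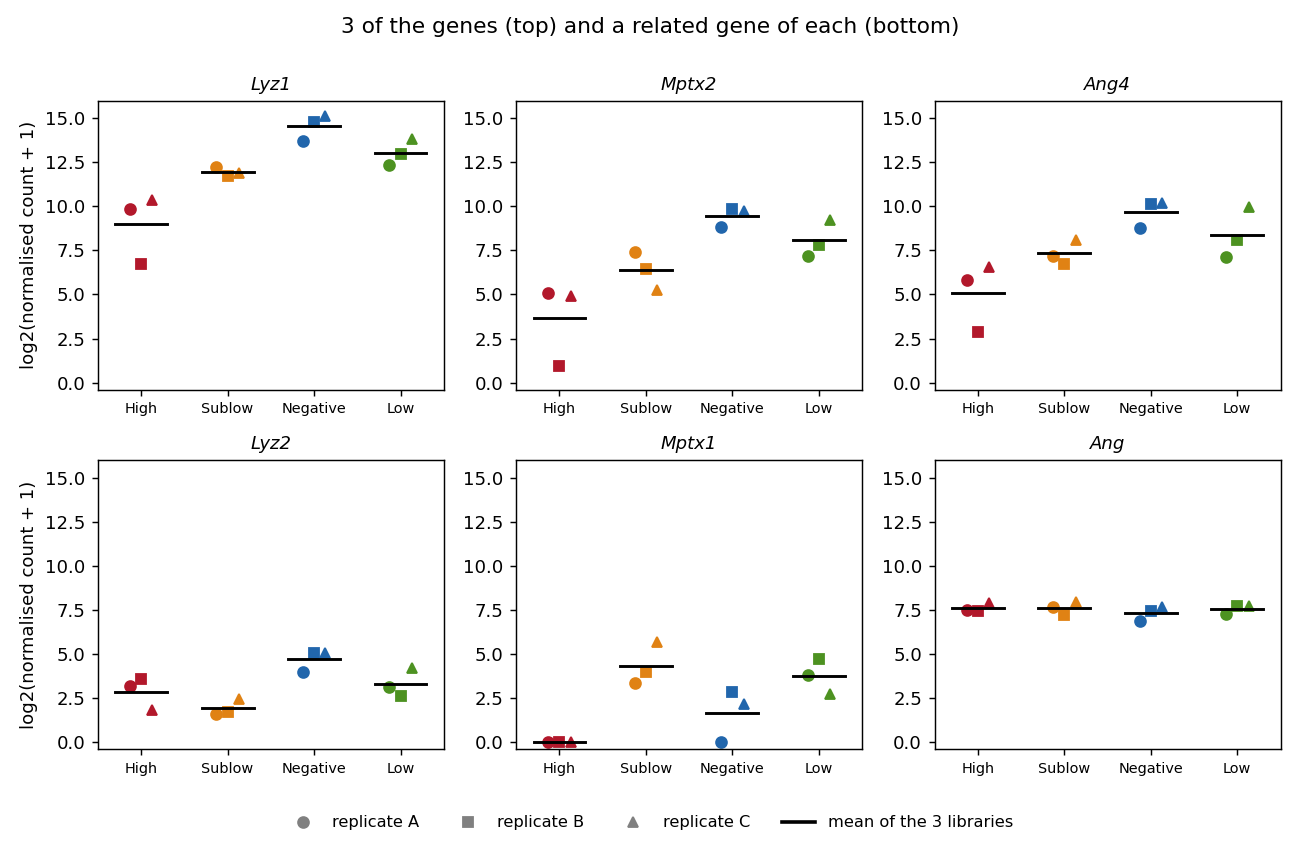
log2(normalised read count + 1) of Lyz1, Mptx2 and Ang4 (top row) and of a related gene of each, Lyz2, Mptx1 and Ang (bottom row), in each library by population, on 1 common scale. Markers are libraries and bars the mean of 3. Lyz2 lies below Lyz1 in every library and Mptx1 below Mptx2 in every library but Sublow C, and Ang varied little between the populations.

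Ang, which encodes angiogenin and is expressed in many tissues, averaged 195 ± 33.0 in High, 198 ± 49.99 in Sublow, 163 ± 43.9 in Negative and 192 ± 32.3 in Low (SD, n = 3 each). It was not called in any of the 6 comparisons, its largest difference being 0.29 (log2, Sublow against Negative, adjusted p = 0.416), whereas Ang4 was called in 2. Ang5 averaged at most 1.44 in any population and Ang2 and Ang6 had no read in any library.

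Mmp7, or matrilysin, is the protease that cuts pro-alpha-defensins in mouse Paneth granules. It measured 272, 141 and 213 in High, 419.6, 333 and 562 in Sublow, 347, 512 and 669.8 in Negative and 587, 658 and 589.6 in Low. The High libraries were the 3 lowest, and those of Sublow, Negative and Low lay within a range of 333 to 669.8. High was below Low (log2 difference -1.59 ± 0.28 (SE), limma adjusted p = 0.000683), Negative (log2 difference -1.28 ± 0.28 (SE), limma adjusted p = 0.00176; -0.80 when scaled to the same total) and Sublow (log2 difference -1.08 ± 0.28 (SE), limma adjusted p = 0.00611). The difference of High from Low was thus smaller for Mmp7 than for Lyz1 (log2 -4.06), a contrast between genes that was not tested. Sublow (log2 -0.51, adjusted p = 0.216; 95% interval -1.12 to 0.10) and Negative (log2 -0.31, adjusted p = 0.365; -0.92 to 0.30) did not pass against Low, although Sublow and Low did not overlap. Sublow passed with library weights (adjusted p = 0.048), and Negative when scaled to the same total (log2 -0.87, adjusted p = 0.0182). Sublow did not pass against Negative (log2 -0.20, adjusted p = 0.621), a difference of 0.089 when scaled to the same total.

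Pnliprp2 encodes pancreatic lipase-related protein 2, a lipase known first from the pancreas. It measured 129.9, 119 and 172 in High, 77.6, 102 and 108 in Sublow, 283, 652 and 780.5 in Negative and 145, 217 and 349 in Low. Sublow was lowest, with none of its libraries above any other population's, and Low C lay above Negative A. Pnliprp2 was lower in High than in Negative (log2 difference -1.91 ± 0.38 (SE), limma adjusted p = 0.000874) and lower in Sublow than in Negative (log2 difference -2.45 ± 0.38 (SE), limma adjusted p = 0.00236; adjusted p = 0.053 in a fit of the 6 libraries alone). It was higher in Negative than in Low (log2 difference 1.24 ± 0.38 (SE), limma adjusted p = 0.014), which was lost without Negative B (adjusted p = 0.0541), Negative C (0.0662) or Low A (0.0684) and when scaled to the same total (log2 0.68, adjusted p = 0.126). It was the 1 gene of the 9 called between Sublow and Low, where 24.0% of all tested genes were called (log2 difference -1.22 ± 0.38 (SE), limma adjusted p = 0.0345), and that call was lost without Sublow A (0.11), Sublow B (0.0712), Low B (0.0723) or Low C (0.143). High did not pass against Low (log2 -0.68, adjusted p = 0.17) or against Sublow (log2 0.54, adjusted p = 0.251; 0.0286 with library weights).

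Clps, the colipase that holds pancreatic lipases on fat droplets, is also a Paneth cell marker in the mouse. It measured 26.2, 28.6 and 34.6 in High, 70.5, 97.3 and 120.4 in Sublow, 161, 318 and 405 in Negative and 75.2, 128 and 125 in Low. Like Pnliprp2 it was higher in Negative than in Low (log2 1.36, adjusted p = 0.00488) and lower in Sublow than in Negative (log2 -1.54, adjusted p = 0.0096). Unlike Pnliprp2 it was called lower in High than in Low (log2 -1.81, adjusted p = 0.00115). The related lipase gene Pnliprp1 averaged 1.20 ± 0.560 in High, 8.15 ± 3.73 in Sublow, 15.8 ± 3.63 in Negative and 16.7 ± 2.95 in Low (SD, n = 3 each), and Pnlip, the pancreatic lipase itself, averaged at most 0.732 in any population. Of 12 pancreatic acinar markers 3 had enough reads to test, Prss2 was at 0 in all 12 libraries, and the list summed to at most 438 in a library, most of it Clps in the Negative libraries.

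Habp2 encodes a hyaluronan-binding serine protease known best as a plasma protein made by the liver. It was the 1 gene of the 9 whose mean was highest in High, at 185, 396 and 195, against 119, 73.8 and 92.3 in Sublow, 140.4, 194 and 343 in Negative and 155, 182 and 123 in Low. High overlapped with neither Sublow nor Low, and the highest value was that of High B, the library that was lowest for Lyz1. Habp2 was higher in High than in Sublow (log2 difference 1.37 ± 0.36 (SE), limma adjusted p = 0.00657), and this call held in all 24 alternatives, also without High B (log2 1.02). It was lower in Sublow than in Negative (log2 difference -1.17 ± 0.36 (SE), limma adjusted p = 0.0318), a call lost without Sublow B (adjusted p = 0.067), Sublow C (0.0806), Negative B (0.0765) or Negative C (0.11), and under 3 other settings (adjusted p from 0.0572 to 0.0938). High against Low (log2 0.68, adjusted p = 0.147), Sublow against Low (log2 -0.69, adjusted p = 0.189), Negative against Low (log2 0.47, adjusted p = 0.278) and High against Negative (log2 0.20, adjusted p = 0.659) did not pass, and the last of these turned to -0.15 without High B. Negative against Low was -0.083 when scaled to the same total.

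Sntb1 encodes beta-1 syntrophin, an adaptor that ties signalling proteins to the dystrophin complex. It had 173 reads in all, and measured 6.32, 10.1 and 16.1 in High, 3.06, 7.83 and 4.39 in Sublow, 20.1, 18.5 and 55.9 in Negative and 8.71, 12.8 and 14.3 in Low. Negative lay above all other libraries, and the remaining populations overlapped in part. Sntb1 was lower in Sublow than in Negative (log2 difference -2.30 ± 0.52 (SE), limma adjusted p = 0.00967; adjusted p = 0.0751 in a fit of the 6 libraries alone). It was lower in High than in Negative at an adjusted p of 0.0415 (log2 difference -1.36 ± 0.52), which was lost without High A (0.149), High B (0.085), Negative C (0.185; log2 -0.86), Low B (0.055) or Low C (0.0521) and under 3 other settings. The Sublow values were near the floor of 3 reads. High against Low (log2 -0.19, adjusted p = 0.801), Sublow against Low (log2 -1.14, adjusted p = 0.136), Negative against Low (log2 1.17, adjusted p = 0.0716) and High against Sublow (log2 0.95, adjusted p = 0.145) did not pass. With library weights Sublow was called below Low (adjusted p = 0.00689), High above Sublow (0.013) and Negative above Low (0.0402). Negative was also called above Low with quantile scaling (0.0139), DESeq2 (0.0342), edgeR (0.044) and a pseudocount of 5 (0.0466).

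Set out by comparison, 6 of the 9 genes were lower in High than in Low and none was called higher, namely Lyz1, Mptx1, Mptx2, Ang4, Itln1 and Mmp7, where 19.3% of all tested genes were called lower and 23.6% higher (42.9% in all). The median log2 difference of the 9 genes was -3.30, against 0.10 over all 16577, and -2.20 against 0.10 without High B. These 6 calls held in every alternative that could be fitted, including without High B. In High against Negative 7 genes were lower and none higher, where 25.8% of all genes were called lower and 28.8% higher (54.6% in all), with a median of -1.91 against 0.03. The exceptions were Habp2 and Mptx1. In High against Sublow 5 genes were lower (Lyz1, Mptx1, Mptx2, Itln1 and Mmp7), where 25.3% of all genes were, and Habp2 was higher, where 26.7% were (52.0% in all), with a median of -2.23 against 0.03. Without High B 4 were lower and 1 higher, with a median of -1.13 against 0.03.

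In Sublow against Negative 5 were lower (Lyz1, Mptx2, Pnliprp2, Habp2 and Sntb1), where 12.7% of all genes were, and Mptx1 was higher, where 15.1% were (27.7% in all), with a median of -2.30 against -0.04. None of these 6 calls was kept in a fit of the 6 Sublow and Negative libraries alone, where 46 of all genes were called, against 4597 in the fit of all 12. In Sublow against Low 1 gene, Pnliprp2, was called lower and none higher, where 10.7% and 13.3% of all genes were, and in Negative against Low Pnliprp2 was higher, where 26.8% were, and Mptx1 lower, where 30.3% were. The medians were -1.06 against -0.06 for Sublow against Low and 1.24 against -0.05 for Negative against Low. In either direction, 24.0% of all genes were called in Sublow against Low and 57.2% in Negative against Low. The count of the 9 genes in Negative against Low depended on the fit. Without High B 3 were higher and 0 lower, and in a fit of the 6 libraries compared 4 were higher. The shares of all genes called in those fits are not given. These counts therefore do not show that the 9 genes changed less than other genes. Comparisons that share a population are not independent of each other.

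**Figure D3:**
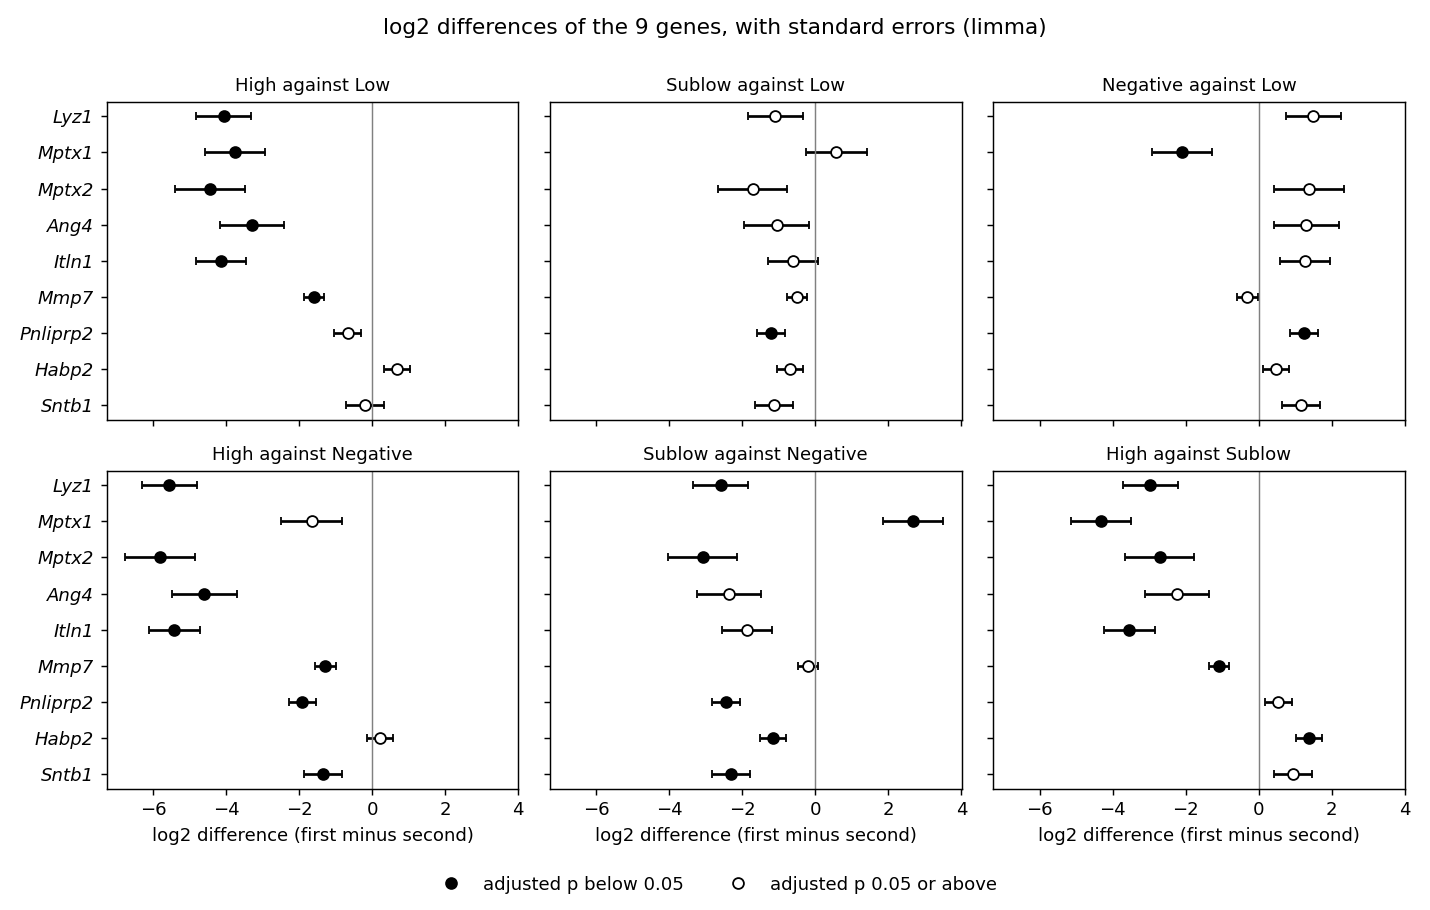
log2 difference (horizontal axis, population named first minus population named second) of the 9 genes in the 6 comparisons, with the standard error of the limma fit. Filled points had an adjusted p below 0.05. All 9 points but Habp2 lie left of 0 in High against Low, and Pnliprp2 and Mptx1 are the filled points in Negative against Low.

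Values of different genes can be set side by side per kilobase of exon, with lengths from the GENCODE annotation. On that scale Lyz1 averaged 621 in High, 3165 in Sublow, 20414 in Negative and 7263 in Low, and Itln1 399.8 in High, 3156 in Sublow, 12099 in Negative and 4972 in Low. These were the highest levels among the 9 genes in all 4 populations. In Negative they were followed by Ang4 at 1281, Mptx2 at 923, Mmp7 at 477 and Pnliprp2 at 364. Habp2 (70.7), Sntb1 (5.91) and Mptx1 (3.99) were lowest there. In High, Mmp7 at 195 per kilobase was above Ang4 (73.4) and Mptx2 (26.5), an order opposite to that in Negative.

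Lyz1, Itln1, Mptx2 and Ang4 varied together from library to library. Over the 12 libraries the Pearson correlation of their log2 values was 0.940 to 0.991 in the 6 pairs, and of their deviations from the population means 0.782 to 0.995. Without High B the correlations of the log2 values were 0.876 to 0.982, and those of the deviations were not computed. The libraries share their sorting gates and their normalisation, and no test was attached to these coefficients. Mmp7 correlated with Lyz1, Itln1, Mptx2 and Ang4 at 0.796 to 0.874 (0.460 to 0.695 within populations). Pnliprp2 correlated with Sntb1 at 0.886 (0.609 within populations) and with Ang4 at 0.736 (0.714 within populations). Habp2 correlated with Lyz1 at -0.24 and, without High B, at 0.33, and Mptx1 with Mptx2 at 0.30 and, without High B, at 0.033.

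The ratios of these genes within a library were steadier than their levels. Lyz1 spanned 103 to 35685 over the 12 libraries, whereas Itln1 reached 50.7 to 92.3 per 100 of Lyz1, Ang4 2.61 to 7.13 and Mptx2 0.893 to 4.23. The ratio of Itln1 to Lyz1 was 63.0, 65.2 and 54.1 per 100 in High, 87.9, 92.3 and 91.0 in Sublow, 61.0, 53.6 and 50.7 in Negative and 74.4, 65.6 and 55.1 in Low. The 3 Sublow libraries lay above all others. This ratio was picked out after its values were seen and is given without a test. The mean of the goblet cell markers was also highest in Sublow, at 507281 ± 140510.0 summed over 13 genes, against 11125 ± 1987 in High, 85848 ± 30666 in Negative and 269908 ± 192978 in Low (SD, n = 3 each). Low B (492176) lay above Sublow A (346034), and no goblet marker was called between Sublow and Low (limma adjusted p from 0.0811 to 0.528). The part of the goblet cell markers in the Itln1 ratio was not tested. Relative to Lyz1, Mmp7, Pnliprp2, Habp2 and Sntb1 had their highest values in High B, where Lyz1 was lowest, at 137 per 100 of Lyz1 for Mmp7 and 384 for Habp2.

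**Figure D4:**
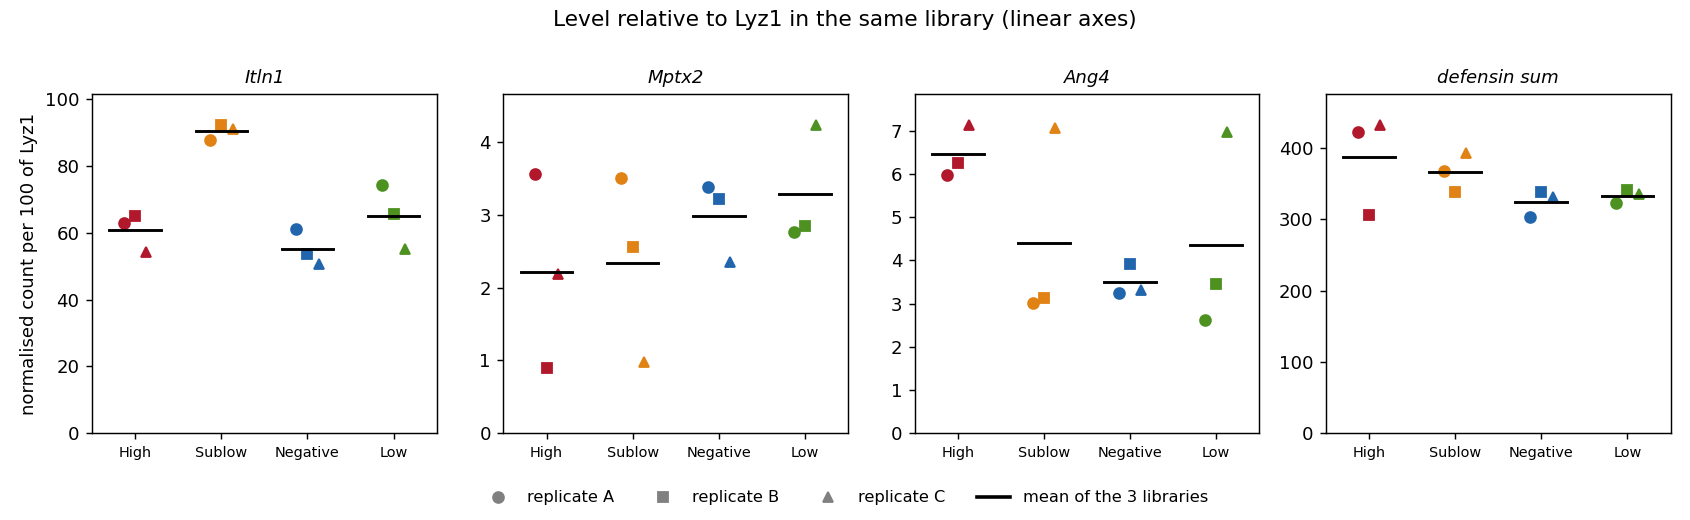
Normalised read count per 100 of Lyz1 in the same library (vertical axes, linear, from 0) for Itln1, Mptx2, Ang4 and the summed alpha-defensins, by population. Markers are libraries and bars the mean of 3. The 3 Sublow libraries are highest for Itln1, at 87.9 to 92.3, and the defensin sum stays between 303 and 432.

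The alpha-defensins, peptides that puncture bacterial membranes and come from a family of near-identical genes, followed the same libraries. Summed over 22 Defa rows they measured 3949.7, 316 and 5683 in High, 17926, 11267 and 14887 in Sublow, 40712, 95262 and 118111 in Negative and 17087, 27046 and 47928 in Low, or 303 to 432 per 100 of Lyz1. Of the 19 with enough reads, 17 were lower in High than in Low (19.3% of all genes), 19 lower in High than in Negative (25.8%), 12 lower in High than in Sublow (25.3%) and 8 lower in Sublow than in Negative (12.7%). Without High B these numbers were 15, 17, 6 and 12. Their median difference between High and Low was -3.78 on the log2 scale, against 0.10 over all genes, and -2.45 without High B. Against Low, none was called in Sublow and 2 were higher in Negative, Defa30 (log2 2.27, adjusted p = 0.0363) and Defa31 (log2 2.10, adjusted p = 0.0322), whereas without High B 2 were lower in Sublow and 10 higher in Negative. Leaving out High B changes the spread used for every gene, and the share of all genes then called is not given. The counts without High B therefore do not show a change particular to the defensins. Reads of single Defa genes cannot be placed with certainty, so the sum is the firmer value.

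Among 10921 genes with a mean of at least 100, the 10 whose log2 values correlated best with the mean standardised profile of the 9 genes over the 12 libraries were 9 alpha-defensins and Clps. The coefficients ran from 0.973 for Defa31 and 0.963 for Defa30 to 0.926 for Clps, and 3 predicted or unnamed identifiers that ranked among them were skipped.

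**Figure D5:**
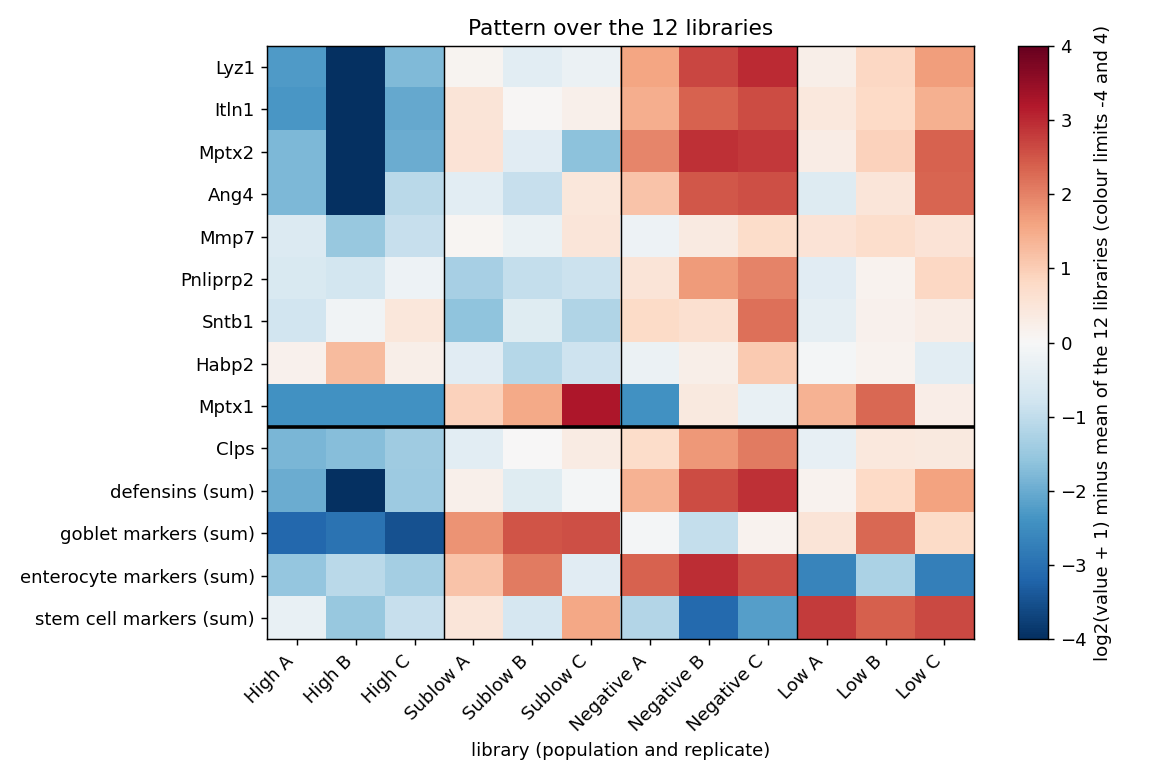
log2(value + 1) minus the mean of the 12 libraries (colour, limited to -4 and 4) for the 9 genes (above the line) and for Clps and summed marker lists (below it), with libraries in columns grouped by population. The defensin sum shows the pattern of Lyz1, Itln1, Mptx2 and Ang4, with the darkest blue in High B, whereas goblet markers are reddest in Sublow B and Sublow C, enterocyte markers in Negative and stem cell markers in Low.

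Of 7 other Paneth cell markers (Clps, Rnase1, Klf15, Nupr1, Spink4, Pla2g2a and Fgfrl1), 6 were lower in High than in Low, 7 lower in High than in Negative and 6 lower in High than in Sublow, and none was higher, where 19.3%, 25.8% and 25.3% of all genes were lower. Without High B the numbers were the same. Their median difference between High and Low was -2.21, against 0.10 over all genes, and -1.79 without High B. The phospholipase gene Pla2g2a differed by -4.57 between High and Low on the log2 scale and the ribonuclease gene Rnase1 by -3.71. Pla2g2a measured 1.80, 0 and 16.05 in High A, B and C, and A and B lay below the floor. The size of its difference is therefore uncertain, and it is not given without High B. In Negative against Low 2 were higher, Clps and Klf15 (log2 1.75, adjusted p = 0.0206), and 2 lower, Spink4 (log2 -1.04, adjusted p = 0.0188) and Fgfrl1 (log2 -0.88, adjusted p = 0.00552). Spink4, a protease inhibitor gene also active in goblet cells, was higher in Sublow than in Negative (log2 1.95, adjusted p = 0.0036), opposite to Lyz1, and Clps was lower. In Sublow against Low only Fgfrl1 passed, lower in Sublow (log2 -1.05, adjusted p = 0.00636).

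Genes for Paneth cell fate and position were called in both directions. Sox9 is left out of the counts, because the populations were sorted on its reporter. Of the other 6, 1 was higher and 5 lower in High than in Low, 2 higher and 3 lower in Negative than in Low, and 4 higher and none lower in Sublow than in Negative, where 42.9%, 57.2% and 27.7% of all genes were called. The medians for these comparisons were -1.67, -1.41 and 1.64, against 0.10, -0.05 and -0.04 over all genes. Without High B the gene higher in High than in Low, Tcf7l2, was no longer called (adjusted p = 0.0579). The 4 higher in Sublow than in Negative were Atoh1 (log2 2.39, adjusted p = 0.000892), Gfi1 (log2 2.13, adjusted p = 0.0493), Spdef (log2 2.50, adjusted p = 0.00207) and Ephb3 (log2 1.14, adjusted p = 0.0177), while Lyz1 was lower in Sublow than in Negative. Atoh1, Gfi1 and Spdef are also needed for goblet cells. The sum of the goblet markers, a list that holds Atoh1 and Spdef, had its highest mean in Sublow. No goblet marker was called between Sublow and Low. Fzd5, the Wnt receptor needed for Paneth cell maturation in the mouse, was lower in High than in Low (log2 -0.72, adjusted p = 0.00179) and higher in Negative than in Low (log2 0.83, adjusted p = 0.000398). In the last comparison it was called in the direction that Lyz1 took without passing.

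Of 8 tested genes for signals and surface proteins of the Paneth cell niche, 4 were higher and 1 lower in High than in Low, and 2 were higher and 4 lower in Negative than in Low, with medians of 0.55 and -1.01 against 0.10 and -0.05 over all genes, of which 42.9% and 57.2% were called. Wnt3, a Wnt ligand supplied by Paneth cells, was higher in High than in Low (log2 1.89, adjusted p = 0.00017), as were the surface proteins Kit (log2 0.92, adjusted p = 0.0106), Cd24a (log2 2.42, adjusted p = 7.83e-05) and the Notch ligand Dll4 (log2 0.73, adjusted p = 0.0129, and 0.0543 without High B), while Dll1 was lower (log2 -0.92, adjusted p = 0.0019). Egf (log2 -0.99, adjusted p = 0.06) did not pass. Bst1, an ectoenzyme that makes cyclic ADP-ribose, measured 54.9 ± 22.6 in High, 775 ± 768 in Sublow, 2036 ± 909 in Negative and 55.7 ± 46.1 in Low (SD, n = 3 each). Of 9 genes of granule formation and lysozyme sorting, 1 was higher and 1 lower in High than in Low, and 3 were higher and 1 lower in Negative than in Low, with medians of 0.061 and -0.096. These shares lay below the 42.9% and 57.2% of all genes called, whose medians were 0.10 and -0.05. The gene lower in High than in Low was Bhlha15 (log2 -1.01, adjusted p = 0.0279, and 0.0553 without High B). The 3 higher in Negative were Xbp1 (log2 0.69, adjusted p = 0.00309), Atg5 (log2 0.71, adjusted p = 0.00165) and Rab2a (log2 0.41, adjusted p = 0.0128), of which Xbp1 drives the secretory apparatus, Atg5 acts in autophagy and Rab2a in vesicle traffic. The pattern-recognition receptor Nod2 was lower (log2 -0.65, adjusted p = 0.0491, and 0.0636 without High B).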

How the data were processed

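The 12 libraries of sorted intestinal epithelium, 3 per population and each of 12000 cells, were single-end and depleted of ribosomal RNA, per the labels, which name Clontech's SMARTer Pico v2 kit for total RNA. The authors deposited 1 table with a signal per gene and library, which its name calls normalised counts. For the aligner, counter, build and annotation of that table, the sources used here give no name. Dividing each library by the size of its smallest step turned 100% of values into whole numbers (tolerance 0.01), so read counts could be recovered, and totals lay between 11.6 M and 17.0 M reads.

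Deposited values were used as log2(value + 1). The 16577 genes that reached 10 in 3 or more libraries, all 9 genes among them, were tested with limma 3.58.1 (trend, 12 libraries in 1 fit, 4.1 prior degrees of freedom) in R 4.3.3, with Benjamini-Hochberg adjustment over all genes of a comparison and a threshold of 0.05. The standard error of a gene comes from all 4 populations together. On the log2(value + 1) scale changes of genes with few reads are understated. The scripts were tested on simulated data. On the recovered counts, edgeR 4.0.16 called 7357 genes in High against Low, 4169 in Sublow against Low, 9460 in Negative against Low, 9066 in High against Negative, 3995 in Sublow against Negative and 8770 in High against Sublow, and DESeq2 1.42.0 called 7714, 4755, 9677, 9300, 5372 and 9067. The limma fit called 7110, 3979, 9474, 9054, 4597 and 8622.

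The 9 genes, the other gene lists (general textbook markers) and the tests were chosen with earlier results of these data known. All 9 genes are named in every comparison. Other genes are named where their list is counted, or as the 10 best correlated with the mean standardised profile of the 9 genes among genes with a mean of at least 100, and at most 2 alpha-defensins by name. Exon lengths came from GENCODE vM21 (GRCm38), matched by symbol. RefSeq sequences were matched by symbol and aligned with Biopython 1.88. Alternatives changed 1 choice at a time: a block for replicate letters, pseudocounts of 5 and 0.5, filters (none, or a minimum mean of 50), scaling to 1 total per library, quantile scaling, robust empirical Bayes, library weights, edgeR, DESeq2, a fit of the 6 libraries compared and leaving out each library. Counts of the other lists without High B, and of fate genes without Sox9, were added after the data were seen.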

Additional observations from a re-analysis of the deposited data

How the results depend on the processing

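Of the 9 genes, the 6 lower in High than in Low kept direction and threshold in every alternative that could be fitted, as did Lyz1, Mptx2, Ang4, Itln1, Mmp7 and Pnliprp2 in High against Negative and Lyz1, Mptx1, Itln1, Mmp7 and Habp2 in High against Sublow. The number called in Negative against Low was 2, and 1 with a pseudocount of 0.5, without the filter or with a mean of at least 50 (which drops Mptx1 and Sntb1), and 4 in a fit of the 6 libraries. In Sublow against Negative it was 6, and 3 with quantile scaling and 0 in the fit of 6 libraries. In Sublow against Low it was 1, and 3 with library weights. With 1 library left out the number was 6 in High against Low, 0 to 1 in Sublow against Low, 0 to 3 in Negative against Low, 6 to 8 in High against Negative, 2 to 8 in Sublow against Negative and 5 to 7 in High against Sublow. The fit of 6 libraries has fewer libraries, and for the rest the cause was not tested.

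Of differences that were not called, 5 changed sign, in 9 cases: Habp2 in Negative against Low (-0.083 at the same total), Mmp7 in Sublow against Negative (0.089 at the same total, 0.022 without Negative C, -0.45 to 0.022 over the libraries left out), Habp2 in High against Negative (-0.027 with quantile scaling, -0.15 without High B, -0.088 without Negative A, -0.15 to 0.55 over the libraries left out), Mptx1 in Sublow against Low (-0.60 with library weights, -0.10 without Sublow C, -0.10 to 1.06 over the libraries left out) and Sntb1 in High against Low (0.12 without High A, -0.49 to 0.12 over the libraries left out).

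With the replicate letter as a block, 7 genes were called in High against Low, 1 in Sublow against Low, 3 in Negative against Low, 7 in High against Negative, 8 in Sublow against Negative and 7 in High against Sublow. The share of all tested genes called with the block is not given. These counts therefore do not show whether the genes described here gained more calls than other genes did. Deviations from the population means correlated at 0.0521 to 0.341 between same-letter libraries (18 pairs, mean 0.156) and at a mean of -0.0781 between other letters, and 12 of 12 libraries correlated best with their own letter. All same-letter correlations were thus above 0, so libraries of a letter shared part of their spread. The negative mean between other letters follows in part from deviations within 3 libraries adding to 0. No label explains the letters, so the main fit held no block and left this shared part in the spread. Calls gained with the block were Pnliprp2 in High against Low (adjusted p = 0.0385), Sntb1 in Negative against Low (0.0443), Ang4 (0.019) and Itln1 (0.0365) in Sublow against Negative and Ang4 in High against Sublow (0.0151).

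Scaling to the same total moved the median of all genes by -0.27 in Sublow against Low, -0.56 in Negative against Low, 0.49 in High against Negative, 0.29 in Sublow against Negative and 0.20 in High against Sublow. The share of called genes that were higher then moved to 28.5% (55.3% as reported), 23.2% (46.9%), 74.3% (52.8%), 86.2% (54.4%) and 63.3% (51.3%). In Sublow against Negative it was 64.6% with quantile scaling and 67.2% with edgeR. Over all genes, Sublow against Low had 3979 calls, 7880 with library weights, 2473 in the fit of 6 libraries, 2500.0 without Sublow B and 2521 without Low A. Sublow against Negative had 4597, and 6939, 46, 2763 without Sublow A, 2186 without Sublow C and 1729 without Negative B. Mptx1 and Sntb1 are limited by depth, with 135 and 173 reads in all.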

Other observations

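Of 22 relatives of the 9 genes, 20 were in the table and 10 had enough reads to test. Against Low, 2 were called higher and 1 lower in High, 1 higher in Sublow, and 1 higher and 3 lower in Negative, where 42.9%, 24.0% and 57.2% of all genes were called. Their medians were 0.45, -0.43 and -0.35, against 0.10, -0.06 and -0.05 over all genes. Crp, the C-reactive protein gene related to Mptx1 and Mptx2, averaged 152 ± 12.9 in High, 70.1 ± 12.3 in Sublow, 117 ± 39.4 in Negative and 92.1 ± 13.1 in Low (SD, n = 3 each), and was higher in High than in Low (log2 0.72, adjusted p = 0.0423, and 0.108 without High B). The membrane-bound metalloprotease gene Mmp14 was higher in High than in Negative (log2 1.82, adjusted p = 1.96e-05), opposite to Mmp7. Hgfac and F12, genes of serine proteases with domains related to those of Habp2, were higher in High than in Negative (log2 1.39, adjusted p = 0.000308 and log2 3.08, adjusted p = 0.00112). F12 lay below the floor in every Negative library (1.06, 0 and 1.14), so the size of its difference is uncertain.

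Markers of other cell types were summed in each library. The 6 T cell genes reached 2953 in High, 529 in Sublow, 712 in Negative and 507 in Low on average, of which Ptprc made up 2469 in High. The 8 stromal and muscle genes reached 3684 in High, 251 in Sublow, 327 in Negative and 771 in Low, of which Vim made up 3519 in High. The 6 tuft cell genes reached 92863 in High, 351 in Sublow, 137 in Negative and 10527 in Low.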
